A study of Mus musculus with 24 samples.

Results

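The comparison described here set the epithelial fraction of mouse lung organoids grown with 12000 nylon 6,6 fibers per well against the same fraction grown without fibers. It was chosen by group label, not by any measured value, and comprised 8 of the 24 RNA-seq libraries of the study, 4 control libraries and 4 with fibers. All 8 came from primary EpCAM-positive lung cells of wild-type female C57BL6 mice (mice 1 to 4, each contributing 1 library to each group), of an age that no source used here gives. Each well held 200000 of these cells and 200000 cells of CCL206, a mouse lung fibroblast line, in diluted Matrigel, a basement membrane gel. Control wells received no fibers. In the other group, fibers of 12 by 31 micrometers were mixed into the gel at seeding. After 7 days the gels were digested, and cells held by magnetic beads against EpCAM, a surface adhesion protein of epithelium, gave the epithelial fraction. Every well, controls included, shared the same fibroblast line, so the 4 replicates vary in the mouse and the culture and not in the fibroblast source. The question was which genes the lower of the study's 2 fiber numbers changed in epithelial cells.

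Conducting airways are lined by a layered epithelium in which basal cells, anchored to the basement membrane, renew secretory club and goblet cells and multiciliated cells. Alveoli are lined by type 2 cells, which make surfactant and act as progenitors, and by flat type 1 cells. EpCAM-positive lung cells contain both lineages, and lung organoids in gel may form airway-like, alveolar or mixed structures. The transcription factor SOX2 is known for marking the airway lineage and SOX9 the distal lineage of the developing lung, while NKX2-1 is shared by both.

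Values were read counts per transcript. The transcript of highest mean over the 12 epithelial libraries stood for its gene. Total counts over all transcripts were 21222034 to 28232472 in controls and 20103389 to 31119155 with fibers, so depth was alike. Levels are given as CPM, counts per 1000000 of the library total over these transcripts, after that total was multiplied by its TMM normalization factor. The factors were 1.0438 to 1.0662 in controls and 1.0405 to 1.0545 with fibers. The mitochondrial share was 5.2% to 7.77% in controls and 5.33% to 6.91% with fibers. Epcam stood at 743, 644, 604 and 609.5 CPM in the control libraries of mice 1 to 4 and at 468, 474, 497 and 495 CPM with fibers. The cells thus carried the gene they were selected for in every library, at a lower level with fibers (log2 fold change -0.43 ± 0.09, adjusted p = 0.00101, where ± gives the SE here and below). Fibroblast genes were also present in this fraction. The summed level of the fibroblast identity list was 8990, 11700, 14600 and 11100 CPM in controls and 18500, 17200, 18600 and 17100 CPM with fibers, and the ranges did not overlap. Most of that sum was Fn1, which encodes fibronectin, here and wherever the sum is used below. Fn1 had 7594, 9301, 11040 and 8589 CPM in controls and 13560, 12710, 13900 and 12660 CPM with fibers. It rose by a log2 change of 0.53 ± 0.10, less than the list median of 1.05. Of 25 immune genes, 18 had no listed transcript, among them Ptprc, Adgre1, Tyrobp and C1qa, and their level is not known here.

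Of 13759 genes tested, 5231 (38%) changed with 12000 fibers, 2575 higher (18.7%) and 2656 lower (19.3%), at an adjusted p under 0.05 (edgeR quasi-likelihood F test, Benjamini-Hochberg). These shares are the background for every list below. For 4998 genes (36.3%) the 4 values of a group did not overlap those of the other, and 5019 of the called genes (95.9%) moved the same way in all 4 mice. The calls came from these same libraries, so the second share is a description and not separate support. The median log2 fold change over all tested genes was -0.0026. Changes of at least 2-fold numbered 1241, with 473 higher and 768 lower. That number was 576 when only genes with higher counts were tested. Changes of 8-fold or more were nearly all falls, 130 against 2 rises. Pearson r of log2 CPM was 0.9901 to 0.9928 among libraries with fibers, 0.9788 to 0.9912 among controls and 0.9274 to 0.9722 across the groups. The first principal component took 74.9% of the variance and placed controls at -54.84 to -20.38 and libraries with fibers at 30.8 to 39.67.

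**Figure D1:**
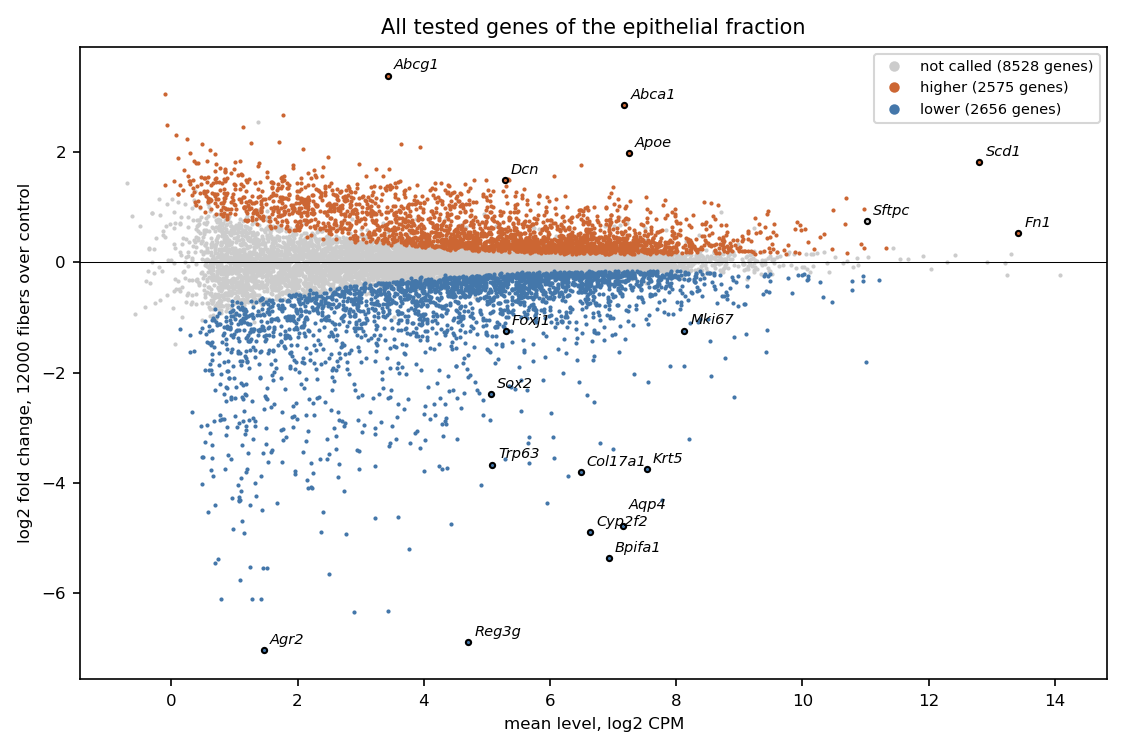
Log2 fold change of each tested gene (y axis, 12000 fibers over control) against its mean level (x axis, log2 CPM), with 2575 higher genes in orange, 2656 lower genes in blue and genes not called in grey. The lower side reaches much farther from 0 than the upper side, from Agr2 at -7.04 to Abcg1 at 3.39.

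Genes of basal cells fell without exception. All 15 tested members of the basal list were lower, with a median log2 change of -2.93, and in all 15 the groups did not overlap. Trp63 (chromosome 16, 25683763 to 25892102, GRCm38, plus strand), the transcription factor that maintains basal cells, had 171, 121, 80.0 and 125 CPM in the control libraries of mice 1 to 4 and 6.10, 4.93, 13.4 and 15.8 CPM with fibers. The highest fiber library was far below the lowest control, and the log2 change was -3.67 ± 0.36 (adjusted p = 3.39e-05). Krt14, the keratin partner of Krt5 in basal cells, went from 217, 228, 135 and 144 CPM to 8.88, 11.1, 20.8 and 19.2 CPM, again with no overlap (log2 -3.63 ± 0.30). Krt15, another basal keratin, fell by a log2 change of -3.88 ± 0.34, Ngfr, the nerve growth factor receptor used to sort basal cells, by a log2 change of -3.69 ± 0.33, and Aqp3, a basal cell water and glycerol channel, by a log2 change of -4.04 ± 0.35. The smallest falls in the list were those of the ligand gene Wnt10a (-0.32 ± 0.12) and of Bcam (-0.46 ± 0.085), a laminin-binding adhesion protein. In these bulk libraries, fewer cells of a type and less RNA per cell cannot be told apart.

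The control library of mouse 3 had the highest fibroblast sum of the controls, 14600 CPM, and also the lowest basal sum, 2330 CPM, against 3730, 3130 and 2690 CPM in the other controls. The fiber libraries had 17100 to 18600 CPM of fibroblast genes and 744 to 801 CPM of basal genes. The control of mouse 3 was thus nearer to the fiber libraries than to the control of mouse 1 in its fibroblast sum, and nearer to the other controls in its basal sum. The part of fibroblast RNA in the falls was not tested. Nor was it tested for any rise given below, whether or not the paragraph repeats this.

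**Figure D2:**
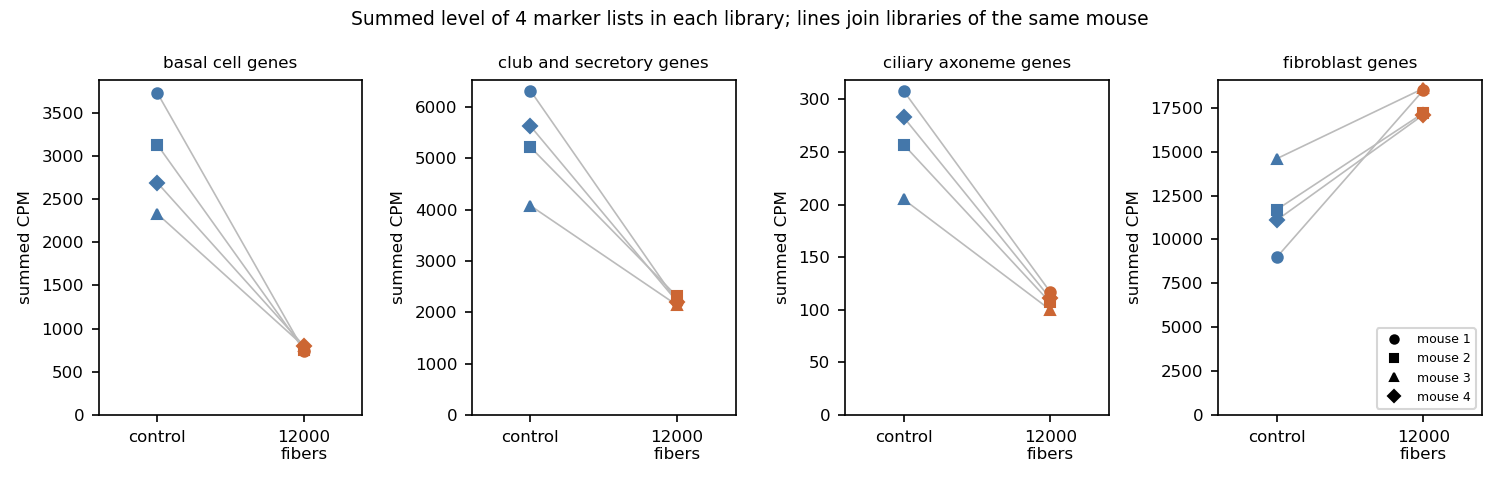
Summed CPM of 4 marker lists (y axis) in the 4 control and the 4 fiber libraries, with 1 symbol per mouse and lines joining libraries of the same mouse. Basal sums lie at 2330 to 3730 CPM in controls and 744 to 801 CPM with fibers, while fibroblast sums rise from 8990 to 14600 CPM in controls to 17100 to 18600 CPM.

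The genes with which basal cells hold on to the basement membrane and to each other moved unevenly. In the list of hemidesmosome, laminin and integrin genes, 11 of 20 were lower and 4 higher (median -0.22). Hemidesmosomes are rivets that join keratin filaments to laminin. Their transmembrane collagen Col17a1 had 516, 296, 271 and 318 CPM in controls and 19.6, 12.1, 37.5 and 32.1 CPM with fibers, so that the groups were far apart (log2 -3.80 ± 0.34). The hemidesmosome integrin chains Itgb4 (-1.73 ± 0.12) and Itga6 (-1.10 ± 0.074) fell as well, the first from 1000, 766, 709 and 739.8 CPM to 221, 219, 277 and 252 CPM. Their tetraspanin partner Cd151 rose slightly (0.28 ± 0.065). Of desmosome, adherens and tight junction genes, 14 of 31 were lower and 8 higher (median -0.09). The falls included desmosome genes, with Dsc2, a desmosomal cadherin, going from 209, 133, 131 and 159 CPM to 13.5, 10.4, 19.1 and 22.8 CPM (log2 -3.28 ± 0.23), Dsg3, another such cadherin, at -2.88 ± 0.34, the plaque protein Pkp1 at -2.41 ± 0.27 and the plakin Dsp at -0.75 ± 0.078. Tight junction claudins were among the rises. Cldn18, a claudin of the alveolar epithelium, went from 391, 666, 638 and 699 CPM to 1003, 1157, 829 and 904 CPM (log2 0.70 ± 0.17), Cldn4 rose by 0.69 ± 0.086 and Cldn1 by 0.88 ± 0.13, while Cldn23 fell by 1.91. E-cadherin, encoded by Cdh1, had a log2 change of 0.098 ± 0.073 and was not called (adjusted p = 0.311), and its groups overlapped.

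Dystonin, the plakin gene Dst on chromosome 1 (GRCm38, plus strand), makes both a short epithelial form that sits in hemidesmosomes and long forms of other cells that bind the actin and microtubule skeletons. Its representative transcript, a long form, was not called (log2 0.16 ± 0.085, adjusted p = 0.141). Among the transcripts, which were tested as separate entries, 19932 of 67490 were called (29.5%), and of 4093 genes with 2 or more called transcripts only 10 (0.244%) had called transcripts in both directions. Among them were Dst, Tcaf1, Ap2m1, Mpp7, Rpl6, Slc44a1, Irak2, Picalm and Tead1, named after their values were seen. Dst had the widest gap, from -2.36 to 0.34 on the log2 scale, and 8 of its 21 listed transcripts were called, 5 lower and 3 higher. The short Dst-213 (34160330 to 34183904, 24 exons, 2639 coding residues) ends in an exon of its own. The first 150 bases of that exon, all coding, are shown because no long form holds them. In GENCODE M21 they are shared only with the single-exon entry Dst-219, which spans the same stretch. They lie at chr1:34181135-34181284, plus strand, with no capitals since no motif was searched.
Dst-213: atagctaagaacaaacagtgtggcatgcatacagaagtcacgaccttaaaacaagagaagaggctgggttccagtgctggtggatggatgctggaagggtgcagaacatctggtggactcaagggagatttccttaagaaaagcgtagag
On the scale of CPM over all listed transcripts, Dst-213 stood at 70.9, 57.6, 60.5 and 67.9 in controls and at 20.6, 20.7, 28.7 and 26.5 with fibers (log2 -1.42 ± 0.11, adjusted p = 1.98e-08). Dst-219, a retained-intron entry over the same exon, went from 23.8, 20.5, 20.2 and 24.3 to 3.51, 3.23, 5.80 and 4.96 on that scale (log2 -2.36 ± 0.14). Both had lower values in every fiber library than in any control. The long Dst-203 had 142, 134, 162 and 149.5 in controls and 151, 156, 175 and 174 with fibers and was not called (log2 0.16 ± 0.079, adjusted p = 0.137). Isoforms share exons, and no source used here gives how reads were shared among them.

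**Figure D3:**
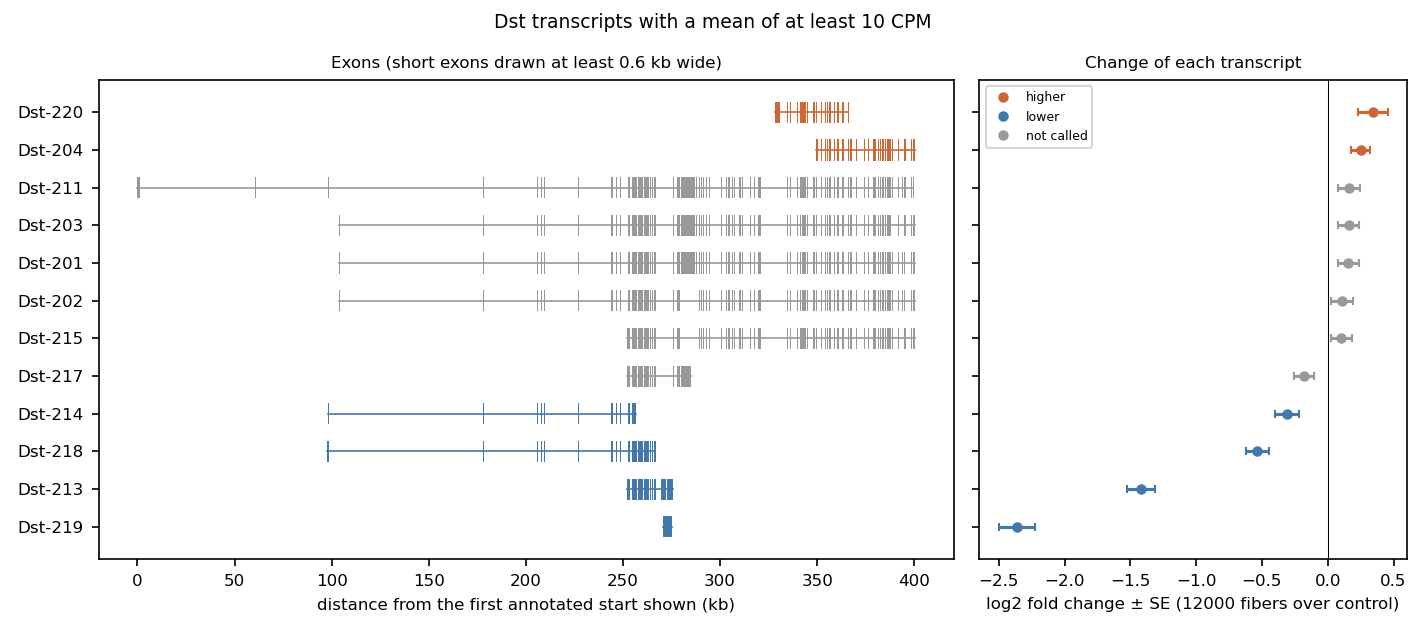
Left, exons of the Dst transcripts with a mean of at least 10 CPM (x axis, distance in kb from the first annotated start shown). Right, log2 fold change of each transcript with its SE. The short Dst-213 and the single-exon Dst-219 lie at -1.42 and -2.36, while the longest forms lie at 0.10 to 0.16.

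Squamous and hillock genes, which mark a stratified state of airway epithelium, had lower levels in 11 of 16 and higher in 2 (median -1.61). Krt4 went from 109, 84.8, 51.2 and 78.8 CPM to 2.06, 0.4, 3.35 and 3.08 CPM (log2 -5.20 ± 0.34). The falls took in Krt6a (-3.36 ± 0.34), Ly6d (-3.20 ± 0.31), Scel (-2.17 ± 0.17) and Anxa8 (-1.87 ± 0.13). The small proline-rich gene Sprr2a3 also had a lower value (-3.74 ± 0.28), but it has near-identical copies among which reads may be split. The crosslinking enzyme gene Tgm1 went the other way (0.61 ± 0.12). Of 24 tested genes for proteases and protease inhibitors of epithelium, 12 were lower and 6 higher (median -0.17). The serpins Serpinb11, with 20.8, 5.64, 11.2 and 9.11 CPM in controls and at most 0.267 CPM with fibers, and Serpinb10 (-3.66 ± 0.33) fell. The membrane proteases Tmprss11d (-2.48 ± 0.36) and Tmprss4 (-0.94 ± 0.12) fell too, as did Tmprss11g (-4.91 ± 0.49), which is outside the list. The metalloproteinase gene Mmp10 rose by 1.23 ± 0.25. Its controls were lowest in mouse 1 (3.36 CPM) and highest in mouse 3 (11.2 CPM), as were the fibroblast sums. The part of fibroblast RNA in its rise was not tested.

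Secretory genes fell broadly. Of 18 club and secretory cell genes, 15 were lower and 1 higher (median -2.24). Cyp2f2, a cytochrome P450 of club cells, had 724, 572, 307 and 609 CPM in the controls and 23.0, 16.6, 17.1 and 16.5 CPM with fibers, a separation with no intermediate library (log2 -4.90 ± 0.33). Cbr2, a carbonyl reductase abundant in club cells, went from 1224, 735, 619.7 and 1090 CPM to 94.9, 119, 75.9 and 112 CPM (log2 -3.19 ± 0.26). The chloride channel subunit Gabrp (-3.28 ± 0.28) and the secretoglobin Scgb3a2 (-5.65 ± 0.50) fell too. Lypd2 had 164 counts over the 4 controls and 3 over the fiber libraries. Its level was 49.9-fold lower, with a 95% exact interval of 16.8 to 244 that covers counting error only. The 1 higher gene was the cytochrome Cyp2b10 (0.71 ± 0.21). Scgb1a1, the standard club cell marker, did not follow the rest. It had 8.80, 16.5, 5.73 and 15.0 CPM in controls and 29.2, 20.1, 12.7 and 17.6 CPM with fibers, with overlapping groups, and was not called (log2 0.79 ± 0.33, adjusted p = 0.09).

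Among mucins, mucus folding factors and goblet regulators, 11 of 14 were lower and 1 higher (median -2.31). Muc5b, the main gel-forming mucin of the mouse airway, had 73.2, 36.1, 34.5 and 104 CPM in controls and 1.61, 0.533, 0 and 0.402 CPM with fibers (log2 -6.35 ± 0.64). The second gel-forming mucin, Muc5ac, fell from 12.6, 9.34, 8.60 and 15.7 CPM to 1.97, 2.00, 2.37 and 1.61 CPM (log2 -2.54 ± 0.22). Muc4, a membrane-bound mucin, showed 1622, 830.5, 996 and 1151 CPM against 204, 172, 229 and 244 CPM (log2 -2.44 ± 0.25), and all 3 had separate groups. The mucin glycosylation enzyme Galnt6 was lower (-2.85 ± 0.29). So was Galnt5, another such enzyme outside the list (-6.10 ± 0.48), with 350 counts over the controls and 4 over the fiber libraries. Agr2, a disulfide isomerase that folds mucins, had 519 counts over the controls and 3 over the fiber libraries, all 3 in that of mouse 1, and was 158-fold lower (95% exact interval 53.7 to 768). Spdef, the goblet transcription factor, was low in both groups and not called (log2 -0.47 ± 0.31, adjusted p = 0.261). Creb3l1, a transcription factor of secretory cells, was the 1 member that rose (0.73 ± 0.12).

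Secreted defence proteins were lower in 12 of 17 and higher in 2 (median -1.22). Ltf, the iron-binding lactoferrin, had 1475, 733, 836 and 1019 CPM in controls and 41.2, 30.6, 70.1 and 63.8 CPM with fibers (log2 -4.31 ± 0.38). Bpifa1, an antimicrobial surfactant-like protein of upper airways, went from 1226, 653, 479.7 and 1000 CPM to 29.1, 12.1, 12.6 and 25.9 CPM (log2 -5.37 ± 0.51). Pigr, which carries IgA across the epithelium, showed 153, 54.5, 86.6 and 146 CPM and 4.30, 4.26, 3.63 and 4.02 CPM (log2 -4.74 ± 0.39). No fiber library came near a control for these 3 genes. The neutrophil chemokine Cxcl5 (-2.77 ± 0.23), the complement component C3 (-0.93 ± 0.09) and Wfdc2 (-1.23 ± 0.11) also fell. Slpi, the secretory leukocyte protease inhibitor, rose from 5.44, 5.64, 8.08 and 6.98 CPM to 18.4, 19.9, 14.6 and 15.8 CPM (log2 1.41 ± 0.16). The lysozyme gene Lyz2 had a log2 change of 0.83 ± 0.34 and was not called (adjusted p = 0.0866).

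Multiciliated cells arise when a cascade of GEMC1, MYB, TRP73, RFX factors and FOXJ1 switches on centriole amplification and the axoneme genes. None of the 14 regulators tested rose and 11 fell (median -0.66). Gmnc, which encodes GEMC1, and Mcidas had no listed transcript. Other early steps were among the falls. Trp73, which acts upstream of Foxj1, had 4.17, 3.70, 1.56 and 3.54 CPM in controls and 0.448, 0.133, 1.12 and 0.67 CPM with fibers (log2 -2.48 ± 0.39), and Myb, which is needed for ciliated and secretory differentiation, had 10.8, 10.8, 5.08 and 9.11 CPM and 2.87, 1.86, 3.07 and 2.14 CPM (log2 -1.84 ± 0.26). The control library of mouse 3 was the lowest control for both. Genes of centriole amplification fell too, among them Ccno (-2.69 ± 0.30) and Ccdc78 (-2.45 ± 0.32). Rfx3 fell by 0.62, and its relative Rfx2 had -0.35 ± 0.14 and was not called (adjusted p = 0.0587).

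Of 36 axoneme genes, 31 were lower and none higher (median -1.26), with separate groups for 30. Summed, they stood at 308, 257, 205 and 283 CPM in controls and at 100 to 117 CPM with fibers. Dnah10, an inner arm dynein heavy chain, had 19.3, 15.6, 13.2 and 16.9 CPM against 1.44, 1.73, 1.39 and 1.21 CPM, a log2 change of -3.48 ± 0.19. Dnah9, of the outer arm, fell by 1.81 ± 0.22, the radial spoke gene Rsph1 by a log2 change of -1.33 ± 0.23, the ruler protein gene Ccdc39 by a log2 change of -1.04 ± 0.19 and the tektin Tekt1 by a log2 change of -1.62 ± 0.33. The levels of these genes were low, and with the stricter filter on low counts, which tested fewer of them, 7 were called.

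RFX factors bind X-box sequences near ciliary genes. Part of that motif, GTTGCCATG, was searched on both strands of RefSeq promoters (250 bases before to 50 after the start, GRCm38.p6). It was held by 0.773% of 32851 promoters and, counted by gene, by 0.877% of 27025 genes. It was found in 1 of the 11 regulator genes with a promoter and in 0 of 30 axoneme genes. The gene was Deup1, which nucleates the structures that amplify centrioles. Its 250 bases before the start are shown, at chr9:15627847-15628096 on the minus strand, because this was the only match in the 2 lists, and the capitals mark the match, which reads on the opposite strand of the gene.
Deup1: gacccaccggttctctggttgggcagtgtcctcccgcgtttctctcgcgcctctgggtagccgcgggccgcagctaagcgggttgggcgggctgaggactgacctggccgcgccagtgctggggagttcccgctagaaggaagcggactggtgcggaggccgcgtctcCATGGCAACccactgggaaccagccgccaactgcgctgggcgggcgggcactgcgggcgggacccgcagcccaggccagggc
The match begins 82 bases before the start. Deup1 stood at 4.28, 3.40, 1.43 and 2.73 CPM in controls and at 0.179, 0.267, 0.279 and 0.268 CPM with fibers (log2 -3.54 ± 0.43). A match is a description of the sequence and not a measured binding site.

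**Figure D4:**
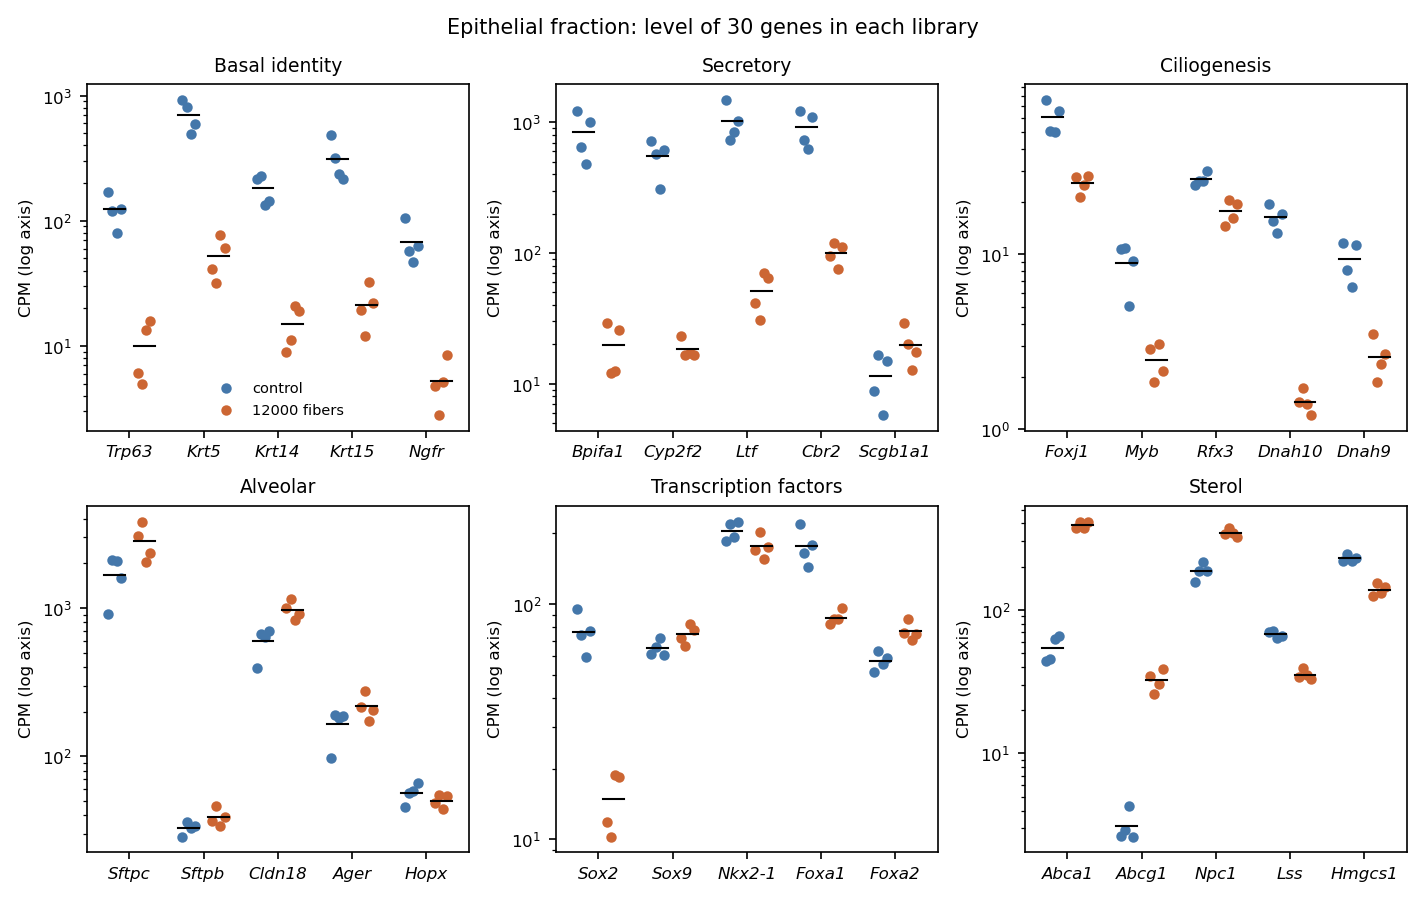
CPM (y axis, log scale) of 30 genes in the 4 control libraries (blue) and the 4 fiber libraries (orange), with the mean of each group as a bar. The fiber libraries lie apart below controls for Trp63, Cyp2f2, Dnah10 and Sox2 and apart above them for Abca1, Abcg1 and Npc1, while Sftpc, Ager, Hopx, Sox9 and Nkx2-1 overlap.

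Lung epithelial transcription factors were lower in 15 of 24 and higher in 2 (median -0.64). The airway factor Sox2 (chromosome 3, 34650405 to 34652461, GRCm38) had 95.0, 74.2, 59.4 and 77.1 CPM in the controls and 11.8, 10.3, 18.7 and 18.5 CPM with fibers, so the highest fiber library was far below the lowest control (log2 -2.38 ± 0.20). Sox9, the distal factor, had 61.1, 65.7, 71.8 and 61.0 CPM and 71.7, 66.2, 82.0 and 77.6 CPM, with overlapping groups (log2 0.20 ± 0.078, adjusted p = 0.0527). With the mouse as a replicate block the adjusted p for Sox9 was 0.0348, and other settings that called it are given below. Nkx2-1, shared by both lineages, had 186, 218, 193 and 224 CPM and 170, 203, 156 and 175 CPM (log2 -0.22 ± 0.094, adjusted p = 0.0725). The paired forkhead genes parted, with Foxa1 down by a log2 change of -1.01 ± 0.14 and Foxa2 up by 0.42 ± 0.09. Sox21 (-2.81 ± 0.28) and Pitx1 (-3.77 ± 0.53) were among the largest falls of the list, and the ETS factors Elf3 (-1.69 ± 0.12) and Ehf (-0.95 ± 0.14) and the epithelial factors Grhl2 (-0.69 ± 0.081) and Klf5 (-0.60 ± 0.083) fell less. Gata6, a factor of distal lung and of type 2 cells, rose from 42.4, 54.9, 52.0 and 56.5 CPM to 82.3, 90.5, 77.1 and 87.8 CPM (log2 0.71 ± 0.083).

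Of 21 type 2 cell genes, 7 were higher and 1 lower (median 0.48). The count of called members fell from 8 to 5 without the 30000-fiber libraries in the fit, and also without the library of mouse 4 of either group. Sftpc, which encodes surfactant protein C, had 913, 2096, 2086 and 1587 CPM in controls and 3059, 3815, 2032 and 2361 CPM with fibers, and Sftpb, which encodes surfactant protein B, had 28.7, 36.0, 33.1 and 33.7 CPM and 36.6, 46.4, 33.9 and 38.9 CPM. Both overlapped and neither was called (log2 0.75 ± 0.29 and 0.24 ± 0.11, adjusted p = 0.0643 and 0.0874). Lpcat1, which makes surfactant lipid, rose by 0.68 ± 0.15, the protease gene Ctsh, which trims surfactant proteins, by 0.48 ± 0.10 and Dram1 by 0.46 ± 0.11. Sftpa1 passed in the 12-library fit (1.22 ± 0.42, adjusted p = 0.0431) and not in 7 of the 15 other settings, with 0.0637 to 0.115 without the control library of mouse 1, 3 or 4 or the fiber library of mouse 1, 2 or 4. Slc34a2 (0.63 ± 0.30) and Lamp3 (0.67 ± 0.27), a phosphate transporter and a lamellar body protein, were not called. The 1 member that fell was Il33, an alarmin cytokine, from 122, 107, 77.3 and 77.1 CPM to 18.8, 22.2, 16.4 and 20.8 CPM (log2 -2.29 ± 0.16).

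Type 1 cell genes were split, 4 higher and 5 lower of 19 (median 0.01). The water channel gene Aqp5 went from 1069, 888, 702 and 820.4 CPM to 359, 358, 341 and 355 CPM (log2 -1.30 ± 0.10), and the caveolar coat genes Cav1 (-1.42 ± 0.077) and Cav2 (-0.63 ± 0.075) fell. Aqp5 also serves airway glands. The basement membrane collagen Col4a3 (0.67 ± 0.10) and the orphan receptor Gprc5a (0.65 ± 0.089) rose, and the defining markers Ager (0.40 ± 0.22, adjusted p = 0.182) and Hopx (-0.17 ± 0.13, adjusted p = 0.333) were not called. Transitional alveolar genes, which mark type 2 cells on the way to type 1, were higher in 11 of 20 and lower in 2 (median 0.28). Krt8 rose from 943, 1107, 871 and 928 CPM to 1283, 1415, 1182 and 1085 CPM (log2 0.37 ± 0.084), with 1 control within the range of the fiber libraries. Ccn2, a matricellular YAP target, rose by 0.70 ± 0.099, Hmga2, a chromatin protein of progenitors, by 0.68 ± 0.19, Tm4sf1 by 0.72 ± 0.10 and Plaur by 0.60 ± 0.069. Krt19 (-0.63 ± 0.082) and Ndrg1 (-1.15 ± 0.16) fell. Ccn2, Hmga2 and Tm4sf1 rose in the same libraries as fibroblast genes, whose sums are given above, and the part of fibroblast RNA in their rise was not tested.

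Of neuroendocrine, tuft cell and ionocyte genes only 4 of 15 were listed and tested, and 2 were higher (median 0.66), Uchl1 (1.58 ± 0.29) and Dclk1 (0.94 ± 0.17). In controls both were lowest in mouse 1 (0.695 and 21.3 CPM), where the fibroblast sum was also lowest. The part of fibroblast RNA in their rise was not tested. The lineage markers Chga, Pou2f3 and Foxi1 had no listed transcript. Cftr, the chloride channel of cystic fibrosis, had 11.5, 11.8, 11.2 and 12.1 CPM in controls and 9.86, 14.9, 10.3 and 14.7 CPM with fibers and was not called (log2 0.084 ± 0.14, adjusted p = 0.684).

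Of 22 ion and water transport genes, 10 fell and 6 rose (median -0.27). Aqp4, a water channel of the basolateral airway membrane, had 1079, 551, 598 and 831 CPM in controls and 24.6, 18.8, 29.7 and 39.1 CPM with fibers, with no overlap (log2 -4.78 ± 0.33). Trpv4, a calcium channel that senses stretch and osmotic change, fell from 82.5, 67.2, 56.4 and 63.1 CPM to 10.2, 6.79, 18.7 and 17.6 CPM (log2 -2.36 ± 0.25). The basolateral chloride loader Slc12a2 (-0.67 ± 0.098) fell less. On the apical side, the sodium channel subunit Scnn1a rose by 0.32 ± 0.09, while Scnn1b (-0.26 ± 0.12) and Scnn1g (-0.15 ± 0.17) were not called. The calcium-activated chloride channel Ano1 rose by 0.42 ± 0.073, the calcium channel Trpv6 by 1.28 ± 0.17 and pendrin, Slc26a4, by 1.59 ± 0.41. Outside the list, Atp6v1b1, a proton pump subunit of ionocytes and other acid-secreting cells, fell by a log2 change of -5.54 ± 0.52. It had 15.7, 11.1, 5.34 and 15.7 CPM in controls and at most 0.697 CPM with fibers.

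Liver X receptors sense oxysterols and switch on sterol export, while SREBP2 switches on sterol synthesis and uptake when sterol is short. Sterol export and LXR target genes were higher in 10 of 15 and lower in 1 (median 0.52). Abca1 (chromosome 4, 53030787 to 53159895, GRCm38, minus strand), which loads cholesterol onto apolipoproteins, had 43.8, 45.1, 62.5 and 65.4 CPM in controls and 373, 411, 372 and 408 CPM with fibers, and Abcg1, its partner in export, had 2.66, 2.92, 4.30 and 2.63 CPM and 34.5, 26.0, 30.3 and 38.9 CPM. These were the 2 rises of more than 2.8 on the log2 scale among the named genes (2.85 ± 0.15 and 3.39 ± 0.25). Apoe, a carrier of exported sterol, rose by 1.98 ± 0.36, the desaturase gene Scd1 by 1.83 ± 0.18 and the phospholipid remodelling gene Lpcat3 by 0.63 ± 0.085. Srebf1, an LXR target that drives fatty acid synthesis, rose by 0.52 ± 0.079. Nr1h3, which encodes LXR alpha, was low and not called (log2 -0.041 ± 0.24, adjusted p = 0.914). Apoe in the control of mouse 3 was 127 CPM, the highest control, in the library with the highest fibroblast sum. Scd1 and Abcg1 also had their highest control there, while Abca1, Lpcat3 and Srebf1 did not. Whether fibroblast RNA had a part in these rises was not tested.

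None of the 25 cholesterol synthesis and SREBP2 target genes rose, and 21 fell (median -0.54). Lss, which closes the sterol ring, went from 70.0, 71.7, 64.2 and 65.7 CPM to 34.0, 39.6, 35.3 and 32.8 CPM, with no overlap (log2 -0.94 ± 0.078). Idi1, an isomerase of an earlier step, fell by 0.92 ± 0.099. Insig1, a feedback gene of the same pathway, had 0.0053 ± 0.079 (adjusted p = 0.968). The sterol regulatory element part TCACNCCAC, where N is any base, was searched on both strands in the same way. It was present in 1.24% of 32851 promoters (by gene, 1.44% of 27025) and in 1 of 17 list genes with a promoter. That gene was Hmgcs1, an early synthase of the pathway that fell by 0.73 ± 0.066. Its 250 bases before the start are shown, at chr13:119690101-119690350 on the plus strand, since it held the only match in the list, marked in capitals 137 bases before the start.
Hmgcs1: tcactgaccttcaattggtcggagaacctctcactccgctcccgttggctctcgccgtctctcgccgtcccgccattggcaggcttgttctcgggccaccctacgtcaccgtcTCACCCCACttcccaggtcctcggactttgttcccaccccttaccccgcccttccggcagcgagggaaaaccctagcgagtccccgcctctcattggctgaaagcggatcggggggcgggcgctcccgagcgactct
Lysosomal genes were higher in 19 of 25 and lower in 1 (median 0.35). Npc1, which lets cholesterol out of lysosomes, went from 157, 187, 215 and 187 CPM to 338, 373, 342 and 323 CPM (log2 0.88 ± 0.08). The membrane proteins Cd63 (0.68 ± 0.078) and Lamp1 (0.46 ± 0.072) and the protease Ctsz (0.74 ± 0.088) rose too. In controls, Npc1, Cd63 and Ctsz were lowest in mouse 1 and highest in mouse 3, as were the fibroblast sums. Lamp1 was not highest in mouse 3. Whether fibroblast RNA had a part in these rises was not tested. The gene that fell was Tfeb, a master transcription factor of lysosomal genes (-0.50 ± 0.13).

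Retinoic acid steers airway cells toward mucociliary fates. None of 17 retinoid genes rose and 14 fell (median -0.67), with separate groups for 14. Adh7, a retinol dehydrogenase, had 22.7, 15.3, 6.51 and 16.3 CPM in controls and 0.359, 1.20, 0.976 and 1.21 CPM with fibers (log2 -4.09 ± 0.40). The retinaldehyde dehydrogenases Aldh1a1, from 71.0, 63.6, 49.1 and 71.0 CPM to 31.5, 28.1, 22.3 and 25.7 CPM, and Aldh1a3 fell by log2 changes of -1.24 ± 0.13 and -2.06 ± 0.42. Dhrs3, a retinoid-induced reductase, fell by 0.67 ± 0.09 and Dhrs9 by a log2 change of -2.29 ± 0.29. Of xenobiotic metabolism genes, 16 of 25 were lower and 4 higher (median -0.76). Fmo2, a flavin monooxygenase of lung, went from 229, 111, 110.1 and 172 CPM to 18.0, 13.3, 15.9 and 21.7 CPM (log2 -3.17 ± 0.27). Gsta4 (-2.02 ± 0.16), Gsto1 (-1.36 ± 0.095) and Gstm1 (-0.97 ± 0.10), which are glutathione transferases, fell, as did Cyp1b1 (-1.28 ± 0.11) and the receptor gene Ahr (-1.30 ± 0.14). Sult1d1, a sulfotransferase, was at 0 CPM in 3 fiber libraries and at 0.804 CPM in that of mouse 4, against 9.72, 9.53, 4.04 and 12.8 CPM in controls.

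Eicosanoid synthesis genes were higher in 7 of 12 and lower in 3 (median 0.51). Ptgs2, the inducible cyclooxygenase, rose from 450, 538, 552 and 518 CPM to 929, 884, 1050 and 925 CPM (log2 0.88 ± 0.094), and Ptgs1, the constitutive form, had a log2 change of 0.71 ± 0.20. The adjusted p of Ptgs1 was 0.0187, 0.0523 without the control library of mouse 2 and 0.0515 with 8 libraries only. The prostaglandin E synthase gene Ptges fell from 225, 169, 173 and 232 CPM to 77.8, 73.7, 75.3 and 93.0 CPM (log2 -1.32 ± 0.13) and the lipoxygenase gene Alox12 by a log2 change of -2.96 ± 0.22, while the thromboxane synthase gene Tbxas1 rose from a low level by 1.70 ± 0.29. Ptgs2 and Ptgs1 in controls were lowest in mouse 1 and highest in mouse 3, as were the fibroblast sums, and Tbxas1 was not. Whether fibroblast RNA had a part in these rises was not tested. The median of this list depended on the genes tested, at 0.17 with the stricter filter.

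In the NOTCH pathway, through which neighbouring cells choose between fates, 9 of 15 genes fell and 1 rose (median -0.61). Hey1, a target gene, had 19.9, 14.6, 9.90 and 17.9 CPM in controls and 0.717, 0.799, 1.12 and 1.07 CPM with fibers (log2 -4.08 ± 0.29). The ligand gene Jag2 (-2.32 ± 0.15), the receptor gene Notch1 (-1.16 ± 0.084) and the feedback gene Nrarp (-1.52 ± 0.18) fell, and the ubiquitin ligase gene Dtx4 rose (0.70 ± 0.14). Of 10 EGF ligands and ERBB receptors, 3 were lower and none higher (median -0.04). These were Erbb2 (-0.74 ± 0.081), Erbb3 (-0.34 ± 0.074) and the ligand Tgfa (-0.45 ± 0.095), while Egfr (-0.21 ± 0.11) and Areg (0.15 ± 0.14) were not called. Of 24 WNT genes, 5 were higher and 9 lower (median -0.18). The ligand gene Wnt4 fell from 60.2, 37.5, 27.1 and 39.6 CPM to 4.04, 4.00, 3.77 and 5.22 CPM (log2 -3.27 ± 0.24), and Wnt7a, another ligand, rose from 51.2, 81.5, 70.2 and 76.5 CPM to 131, 146, 132 and 136 CPM (log2 0.96 ± 0.12). The R-spondin receptors Lgr6 (-1.77 ± 0.18) and Lgr4 (-1.29 ± 0.13) fell. The target genes Lef1 (1.23 ± 0.25) and Sp5 (1.69 ± 0.24) rose, and the target Axin2 was not called (0.55 ± 0.34, adjusted p = 0.214). Lef1 in controls was lowest in mouse 1 (1.39 CPM) and highest in mouse 3 (5.86 CPM), as were the fibroblast sums. The part of fibroblast RNA in its rise was not tested.

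Of 26 SHH, BMP and FGF receptor genes, 4 were higher and 10 lower (median -0.07). Bmp7 fell by 2.91 ± 0.22, Shh, an epithelial signal to mesenchyme, by a log2 change of -0.92 ± 0.19, and Fgfr3 from 119.6, 89.2, 52.0 and 99.6 CPM to 20.7, 21.4, 15.5 and 18.6 CPM (log2 -2.24 ± 0.24). Fgfr2, the epithelial receptor of fibroblast FGF7 and FGF10, fell from 114, 109.9, 106 and 137 CPM to 72.0, 78.2, 61.8 and 69.8 CPM (log2 -0.73 ± 0.083). The rises were Fgf2 (1.16 ± 0.27), Grem1, a BMP antagonist (1.09 ± 0.30), Fgfr1 (0.74 ± 0.12) and Id3. Fgf2, Grem1 and Fgfr1 are also genes of fibroblasts. Grem1 had 112, 213, 396 and 275 CPM in controls and 539.5, 463, 548 and 573 CPM with fibers, with the highest control again in mouse 3, and the part of fibroblast RNA was not tested.

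Of 32 proliferation genes, 23 fell and 3 rose (median -0.73). Mki67, present in all cycling cells, went from 492, 500, 365 and 365 CPM to 176, 192, 179 and 186 CPM (log2 -1.23 ± 0.10), with no overlap. The cyclin Ccna2 (-1.13 ± 0.12), the kinetochore gene Cenpf (-1.07 ± 0.093) and Hmgb2 (-1.33 ± 0.12), all of late cycle phases, fell. Pcna (-0.17 ± 0.088) and Mcm2 (-0.23 ± 0.13), which act in replication, were among the 6 members not called. Both were chosen after their values were seen. They do not stand for the other replication genes of the list, some of which fell. Ccnd1, the cyclin of cell cycle entry, rose (0.45 ± 0.072). Among p53 targets 10 of 22 were higher and 5 lower (median 0.18). Mdm2, the feedback ligase of p53, went from 162, 196, 228 and 205 CPM to 322, 271, 327 and 308 CPM (log2 0.64 ± 0.10) and Ccng1 rose by 0.53 ± 0.095, while Perp, a desmosome-linked target of both p53 and p63, fell by 1.41 ± 0.15 and Ccnd2 by a log2 change of -0.60 ± 0.077. In controls, Mdm2 and Ccng1 were lowest in mouse 1 and highest in mouse 3, as were the fibroblast sums. Whether fibroblast RNA had a part in their rise was not tested.

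Hypoxia and glycolysis genes fell in 16 of 26 cases and rose in 1 (median -0.28). Egln3, a prolyl hydroxylase induced by hypoxia, had 262, 136, 163 and 236 CPM in controls and 17.4, 20.9, 25.7 and 26.1 CPM with fibers (log2 -3.16 ± 0.23), and Car9, a carbonic anhydrase, fell by 3.56 ± 0.35. Of the glycolytic enzymes, the aldolase gene Aldoc fell by 1.29 ± 0.15 and the lactate dehydrogenase gene Ldha by a log2 change of -0.54 ± 0.077. In the list of unfolded protein and integrated stress response genes, 11 of 24 were higher and 5 lower (median 0.21). Apart from the sensor gene Ern1, the rises were of genes on the ATF4 side, which answers lack of amino acids and other stresses. Trib3 went from 10.9, 15.5, 18.1 and 17.5 CPM to 30.3, 31.3, 32.8 and 30.4 CPM (log2 1.01 ± 0.13), and Chac1 (1.14 ± 0.21), Atf5 (0.92 ± 0.097), Asns (0.88 ± 0.12), Mthfd2 (0.86 ± 0.10) and Atf4 itself (0.33 ± 0.067) rose. Trib3, Chac1, Atf5 and Asns in controls were lowest in mouse 1 and highest in mouse 3, as were the fibroblast sums. Mthfd2 and Atf4 were not highest in mouse 3. Whether fibroblast RNA had a part in these rises was not tested. The chaperone gene Hspa5 of the unfolded protein branch was not called (-0.048 ± 0.061, adjusted p = 0.576) and Xbp1 fell (-0.42 ± 0.073).

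Of 27 interferon response genes, 11 fell and 3 rose (median -0.38). Mx1 had 55.9, 39.1, 27.6 and 44.4 CPM in controls and 19.2, 13.5, 20.2 and 20.1 CPM with fibers (log2 -1.20 ± 0.23), Oas2 fell by 2.84 ± 0.44 and Irf1 by a log2 change of -0.33 ± 0.076, and the immunoproteasome gene Psmb8 rose by 0.42 ± 0.10. MHC class II genes were higher in 5 of 7 (median 0.81), a count of 3 with the mouse as a replicate block and without the 30000-fiber libraries. Cd74, the invariant chain, went from 303, 431, 648 and 491 CPM to 915, 945, 704 and 709.8 CPM (log2 0.81 ± 0.20), and Ciita, their master regulator, rose with 1 control inside the fiber range (0.84 ± 0.22). H2-Aa was called (0.85 ± 0.28, adjusted p = 0.0381) and had an adjusted p of 0.0764 with the replicate block and 0.0552 to 0.097 without the control library of mouse 1, 2 or 4 or the fiber library of mouse 1, 2 or 3. Their highest controls were again those of mouse 3. Type 2 cells as well as macrophages carry class II genes.

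Genes of other cell types in this fraction were taken as a check. Fibroblast identity genes rose in 24 of 27 tests and fell in none (median 1.05), with separate groups for 25. Pdgfra, a receptor of lung fibroblasts, had 20.8, 32.5, 58.2 and 41.9 CPM in controls and 89.0, 73.8, 93.7 and 93.7 CPM with fibers (log2 1.20 ± 0.25), Vim, a mesenchymal filament, had 74.8, 153, 249 and 162 CPM and 381, 318, 369 and 338 CPM (log2 1.14 ± 0.29), and Col6a2 rose by 1.30 ± 0.24. Hox genes, which fibroblasts also express, were higher in 11 of 17 and lower in 1 (median 1.09), and the stricter filter left 5 called. Hoxc8 (1.39 ± 0.18) and Hoxb8 (1.31 ± 0.23) rose. The CCL206 line is male and the epithelial cells female. Kdm5d, the single Y-linked gene listed, had 3.01, 1.65, 1.17 and 2.43 CPM in controls and 1.97, 2.40, 3.07 and 2.28 CPM with fibers (log2 0.20 ± 0.29, adjusted p = 0.621). Xist, which is read from the inactive X of female cells, had 3241, 2751, 3443 and 3432 CPM and 2854, 3413, 3240 and 3928 CPM (log2 0.062 ± 0.099, adjusted p = 0.66). Neither sex-linked gene was called, and whether CCL206 cells keep a Y chromosome was not tested. Zeb1, a mesenchymal repressor of epithelial genes, rose by 1.12 ± 0.21 in the same libraries.

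Among 7 listed immune genes 3 were higher and 1 lower (median 0.56), and their sum went from 866 to 1800 CPM in controls to 2330 to 2930 CPM with fibers. Most of that sum was Spp1 (1.18 ± 0.21), which stressed epithelial cells and fibroblasts can also make. Mpeg1 rose at a low level (1.06 ± 0.14), Cd68 was not called (0.14 ± 0.14), and Cd14 fell (-1.33 ± 0.17). Csf1r was called (0.56 ± 0.18, adjusted p = 0.0222). Its adjusted p was 0.0625 with summed transcripts and 0.0505 to 0.0664 without the control library of mouse 1 or 2 or the fiber library of mouse 2 or 4. Of 6 endothelial, mesothelial and smooth muscle genes, 1 was higher, Des (1.53 ± 0.30), and 1 lower, Msln (-0.56 ± 0.12), with a median of -0.29. Of 13 mitochondrially encoded genes 0 were called by edgeR or by DESeq2 (median -0.02), and 0 had an unadjusted p under 0.05. Without the control library of mouse 3 the number called was 2.

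**Figure D5:**
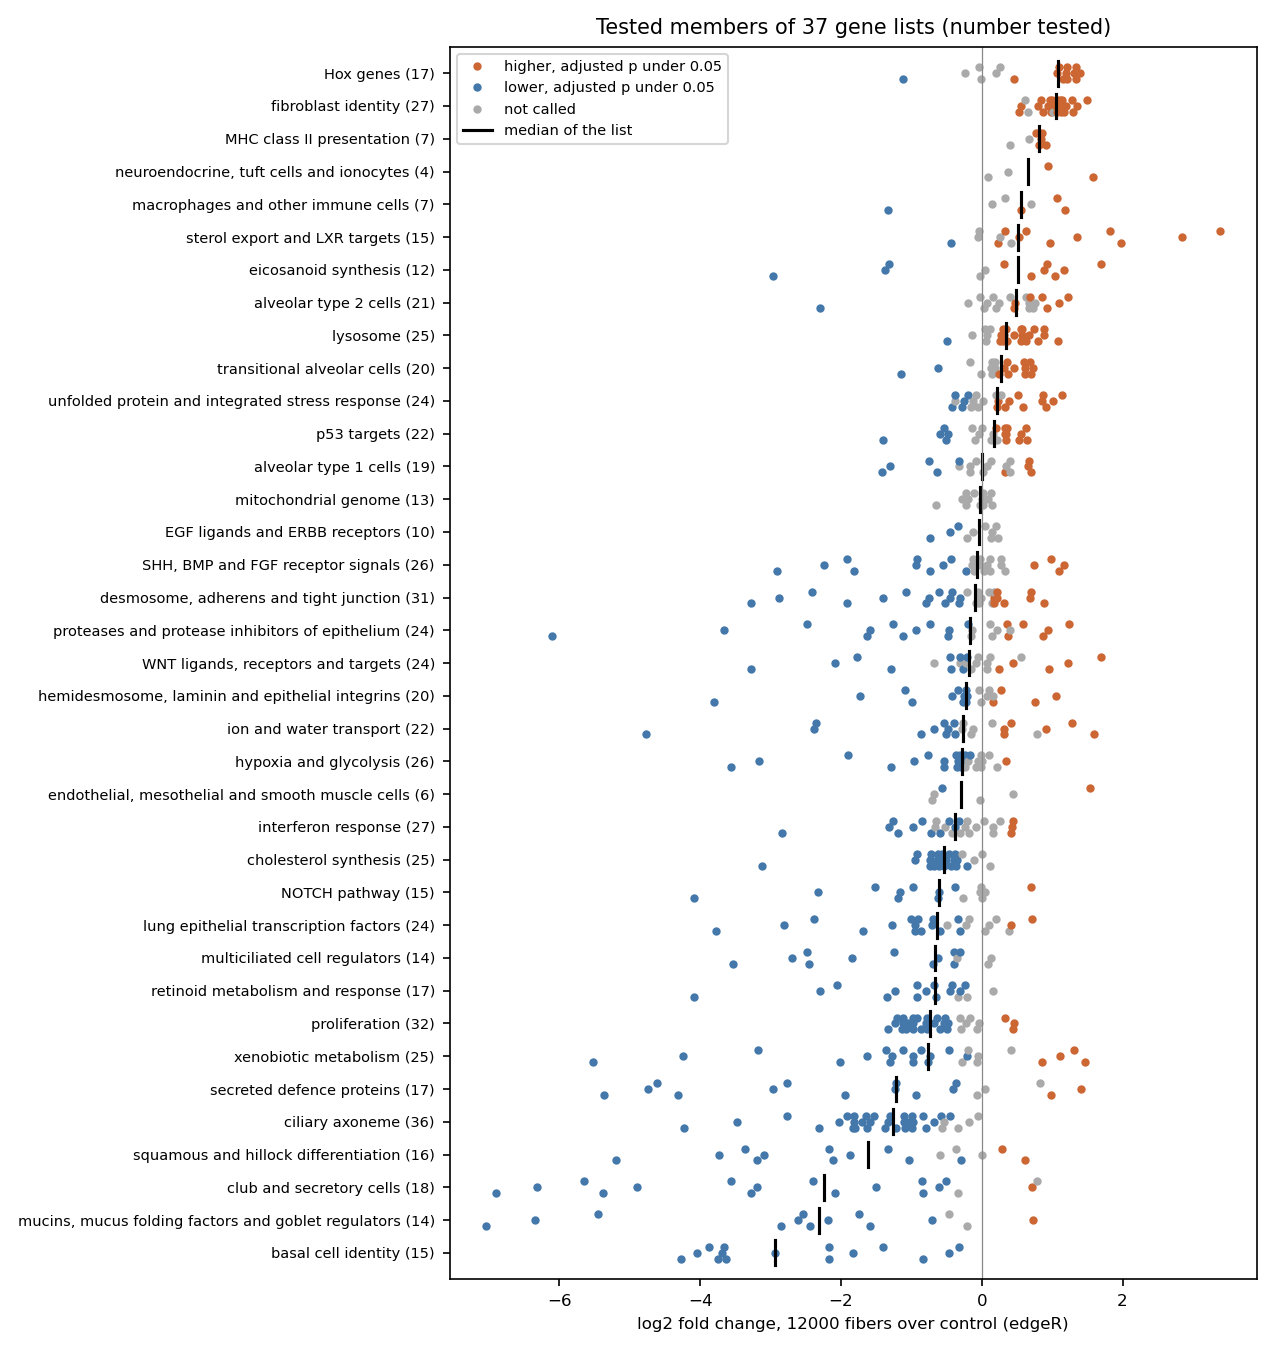
Log2 fold change (x axis, 12000 fibers over control) of the tested members of 37 gene lists (y axis, number tested in brackets), with called members in orange or blue, others in grey and the median of each list as a bar. Medians run from -2.93 for basal cell identity to 1.09 for Hox genes.

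Some of the largest rises belonged to no list. Ranked by fold among called genes whose mean log2 CPM was 1 or more and whose direction was the same in all 4 mice, a condition of the choice, they were led, after the sterol exporters, by Hcls1, from 0.232, 2.14, 1.17 and 1.01 CPM to 7.80, 10.1, 6.41 and 5.89 CPM (log2 2.67 ± 0.34), and Lrp3, from 0.579, 0.876, 0.782 and 0.506 CPM to 4.57, 4.53, 4.32 and 1.88 CPM (log2 2.46 ± 0.32). Others were Xirp2 (2.18 ± 0.31), Slc4a10, a bicarbonate transporter (2.17 ± 0.29), Bex2 (2.14 ± 0.19), Bex4 (2.10 ± 0.23), Pramef12 (2.07 ± 0.32), Hkdc1 (1.91 ± 0.22), Tmem28 (1.85 ± 0.32), Vipr2, a receptor of vasoactive intestinal peptide (1.83 ± 0.31), and Plcd4 (1.81 ± 0.27). The control means of these 11 genes were at most 7.39 CPM. The largest falls outside the lists, by the same ranking, were those of Galnt5 and Atp6v1b1, given above, and of Ntrk2, Lrrc26 and Oit1. Ntrk2, a neurotrophin receptor, had a log2 change of -5.76 ± 0.69 and no overlap. It had 279 counts over the controls and 4 over the fiber libraries. The log2 changes of Lrrc26, a potassium channel subunit, and of Oit1 were -5.54 ± 0.37 and -4.92 ± 0.39.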

How the data were processed

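RNA-seq libraries were made from 300 ng of total RNA, per the labels' protocols. The submitters' processing notes name bcl2fastq, FastQC, HISAT2 2.1.0, cutadapt 1.12 and build mm10. No source used here names the counting program, its strand setting or the use of barcodes. Raw counts per transcript were deposited (71081 transcripts, 14557 gene symbols), of which 70518 transcripts were found in GENCODE M21.

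The 12 epithelial libraries (control, 12000 and 30000 fibers) entered a single edgeR 4.0.16 quasi-likelihood fit in R 4.3.3, with 9 residual degrees of freedom, filterByExpr, TMM, robust dispersions and Benjamini-Hochberg adjustment over 13759 genes. SEs are from the F statistic. A simulation at these depths changed 200 of 13759 genes, far fewer than the 5231 called here, so its shares need not hold for these data. Of the changed genes that were tested, it recovered 88.7% at a log2 change of 1 and 99% at 2. It also called 23 unchanged genes. Mouse numbers pair the libraries, since same-numbered libraries come from the same mouse. Deviations of same-mouse libraries from their group means had r of -0.022, 0.145, 0.035 and 0.166. The main fit had no mouse term.

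The rule for named genes took the 15 largest rises and falls whose mean log2 CPM was 1 or more, with the same direction in 4 pairs, up to 4 called members per list by smallest p, and fixed genes, giving 182 genes. Another 105 were chosen after their values were seen. The comparison, lists and members were chosen with earlier results of these data known. Alternatives were DESeq2 1.42.0, RLE, 2 other filters, 8 libraries only, the mouse block, summed transcripts and leaving out each library. Fibroblast libraries were not used, and a few genes are not reported here.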

Additional observations from a re-analysis of the deposited data

Results flagged for a closer look

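Of 574 groups of 4 values examined for the named genes, 20 (3.48%) had a library whose gap to its nearest neighbour passed Dixon's critical share of the range of the group. Chance gives about 1 in 20. Among controls, the library of mouse 1 was set apart in Slc4a10 (0.579 CPM), Tmem28 (0.579 CPM), Itga6 (506 CPM), Dsp (814 CPM), Ager (97.2 CPM), Ccnd1 (508 CPM) and Trim29 (94.7 CPM), and that of mouse 2 in Tmprss4 (20.6 CPM). That control library of mouse 1 also had the lowest fibroblast sum, 8990 CPM, and the highest basal sum, 3730 CPM.

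Among fiber libraries, that of mouse 1 was set apart in Agr2 (0.269 CPM), Wfdc2 (468 CPM), Deup1 (0.179 CPM) and Cyp2f2 (23.0 CPM). The library of mouse 2 was set apart in Lrrc26 (0 CPM), Erbb2 (84.5 CPM), Mx1 (13.5 CPM), Fgf2 (59.3 CPM) and Col4a3 (650 CPM), that of mouse 3 in Ccna2 (22.0 CPM), and that of mouse 4 in Lrp3 (1.88 CPM) and Sult1d1 (0.804 CPM). In each of these 20 genes except Ager, the gene was called and its groups did not overlap.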

How the results depend on the processing

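The number of called genes was 5231, and 4987 with DESeq2, 5239 with RLE factors, 5368 with no filter, 4196 with the stricter filter, 5190 with 8 libraries only and 4839 with summed transcripts. With the mouse as a replicate block it was 5521. Leaving out 1 library gave 4441 to 5414. Genes changed at least 2-fold numbered 576 with the stricter filter, against 1241, where 10307 genes were tested instead of 13759. Of 4257 values of the named genes under the 15 settings, 4200 kept their direction and their side of the threshold, and 253 of 257 called genes did so under every setting in which they were tested. The stricter filter tested 239 of the 287 named genes. H2-Aa, Csf1r, Sftpa1 and Ptgs1 were the exceptions. The replicate block ended the call of H2-Aa and brought in Sox9 and Rfx2 (log2 -0.35, adjusted p = 0.0455). Sox9 was also called with RLE factors (adjusted p = 0.049) and with no filter (0.04985). Without the control library of mouse 3, the adjusted p was 0.0199 for Sox9 and 0.0164 for Rfx2. It was 0.0227 and 0.0435 without the fiber library of mouse 2. Sftpc was called by DESeq2 (adjusted p = 0.0203) and Scgb1a1 without the fiber library of mouse 3 (log2 0.94, adjusted p = 0.0492).

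Signs turned only in genes near 0. Leaving out 1 library gave -0.013 to 0.20 for Cftr, -0.055 to 0.05 for Insig1, -0.25 to 0.073 for Nr1h3 and -0.020 to 0.13 for Xist, and the stricter filter gave -0.0028 for Insig1. That filter, which removes genes of low counts before the test, left 7 ciliary, 7 mucin and 5 Hox genes called. It called 4196 of the 10307 genes it kept. The cause of the moves was not tested.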

Other observations

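Further genes of stratified and airway epithelium, chosen after their values were seen, fell in the same libraries. Fat2, a giant cadherin of stratified epithelia, went from 308, 205, 183 and 226 CPM in controls to 16.9, 14.8, 21.6 and 26.7 CPM with fibers (log2 -3.54 ± 0.20). Pax9 (-2.92 ± 0.28), a patterning transcription factor, and Trim29 (-3.21 ± 0.29), a binding partner of p53, were lower. So were Pthlh, the parathyroid hormone-related signal (-2.70 ± 0.21), the laminin chain gene Lama1 (-3.74 ± 0.27), the membrane protease gene Adam28 (-4.36 ± 0.38) and Igfbp5 (-3.56 ± 0.34).

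Ceruloplasmin, encoded by Cp, had 1087, 677, 572 and 785 CPM in controls and 199, 167, 188 and 193 CPM with fibers (log2 -2.06 ± 0.17), and transferrin, encoded by Trf, had 1391, 1050, 859.8 and 1669 CPM and 369, 537, 247 and 463 CPM (log2 -1.62 ± 0.28). Epas1, which encodes the hypoxia factor HIF2 alpha, went from 586, 397, 364 and 505 CPM to 126, 130, 116 and 134 CPM (log2 -1.87 ± 0.15).

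The basement membrane collagen genes Col4a1 (0.98 ± 0.16) and Col4a2 (0.95 ± 0.15) rose, the first from 952, 1610, 1804 and 1480 CPM to 3041, 3307, 2672 and 2494 CPM. Col4a1 in controls was lowest in mouse 1 and highest in mouse 3, as were the fibroblast sums. The neurotrophic factor genes Gdnf, from 6.71, 8.95, 15.9 and 12.1 CPM to 25.5, 29.0, 31.6 and 31.5 CPM (log2 1.43 ± 0.18), and Bdnf (1.36 ± 0.21) rose. The fibroblast sum in the same libraries rose from 8990 to 14600 CPM in controls to 17100 to 18600 CPM. The part of fibroblast RNA in the rises of these collagen and neurotrophic factor genes was not tested.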
